A study of Mus musculus with 24 samples.

Results

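The untreated mammary gland of BALB/c mice was compared between 2 time points. The comparison rested on 3 sham arrays at 4 weeks and 3 sham arrays at 2 weeks, which are 6 of the 24 arrays in the series. They were chosen by their labelled strain, exposure and time, and no measured value entered the choice. BALB/c is an inbred mouse strain that is sensitive to radiation-induced mammary cancer. All mice were female, and the sham mice went through the procedure at 8 to 9 weeks of age without X-rays, so the glands came from animals of about 10 to 11 weeks at the first time and about 12 to 13 weeks at the second. Mice given low-dose ionizing radiation (LDIR), 10 cGy of X-rays to the whole body at the same age, gave 3 further arrays at each time, and these 6 arrays from other mice were used only to compare the same interval in them. The methods call the 3 arrays of a group, lettered A, B and C, biological replicates. The stage of the estrous cycle is not given in the sources used here, and a whole gland holds epithelium, fat, vessels, blood and immune cells in proportions that were not recorded.

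In the virgin adult mouse the ductal tree has filled its fat pad, and epithelial branching and regression follow the ovarian cycle. Estrogen and progesterone act through luminal cells that carry their receptors, and these cells signal to their neighbours with factors such as amphiregulin, Wnt4 and RANKL. The epithelium is a small part of a tissue dominated by white adipocytes. The question addressed here was which transcripts differed between untreated glands collected 2 weeks apart, the background against which the radiation comparisons of the series are set.

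Levels are given as log2 of the fluorescence of a probe relative to the 75th percentile of its array, so 0 is the level of that percentile and 1 unit is a doubling. A probe was called when the unadjusted p of limma, a linear model that shares the estimate of spread among probes, was under 0.05 and the fold change was over 1.5, which are the thresholds in the study's methods. A probe counted as measured when its signal was well above background. Between 65.7% and 70.8% of probes were measured on each of the 6 arrays, and no spot was saturated. Across the 34235 probes measured on all 6 arrays, the correlation between 2 arrays of the same time was 0.984 to 0.988 in 6 pairs, and that between arrays of different times was 0.982 to 0.990 in 9 pairs. The closest pair thus joined the times, namely array C at 2 weeks and array A at 4 weeks.

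The tissue markers of a mammary gland were present at both times. Adipoq, which encodes the fat hormone adiponectin, read 7.95, 8.37 and 8.31 on arrays A, B and C at 2 weeks and 8.14, 8.29 and 7.74 at 4 weeks. Krt18, a luminal keratin, read 7.45, 6.43 and 6.92 against 6.33, 7.26 and 7.22. Krt14, a keratin of the basal layer, read 0.52, 0.22 and 0.35 against 0.39, 1.39 and 1.25. The milk protein gene Csn2 was above background on 1 of the 6 arrays only, array A at 2 weeks. Skeletal muscle genes set 1 array of each time apart before any comparison. The summed linear level of the 14 muscle genes was 782 on array C at 2 weeks and 43 on array A at 4 weeks, against 2.93 to 4.18 on the other 4 sham arrays. Tnnc2, a troponin of fast muscle, read 7.51 and 3.15 on those 2 arrays and between -0.94 and -0.34 on the others. The median change of the 14 genes was -1.205, with 1 change above 0. None of the 14 passed the thresholds, and their part in the results below was not tested.

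**Figure D1:**
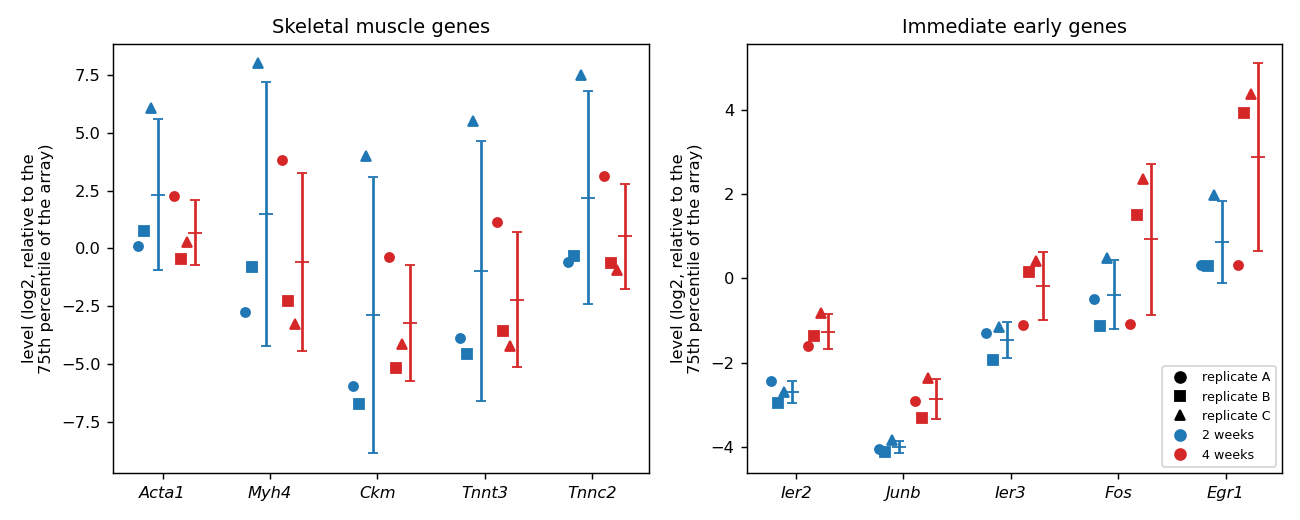
Levels (log2, relative to the 75th percentile of the array) of 5 skeletal muscle genes and 5 immediate early genes on the 6 sham arrays, with symbols for replicates, the mean and its SD (n = 3). Tnnc2 stood at 7.51 on array C at 2 weeks and 3.15 on array A at 4 weeks, and Ier2 was at -1.61 to -0.81 on the 4-week arrays, above the 2-week arrays.

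Few probes differed between the 2 time points. Of 55681 probes, 1692 (3.04%) were called, 1228 (2.21%) higher and 464 (0.833%) lower at 4 weeks. An unadjusted p under 0.05 was reached by 2114 probes (3.8%), fewer than the 5% that equal p-values across the range would give. In limma no probe passed once p-values were adjusted by Benjamini-Hochberg over the whole array, and the lowest adjusted p was 0.259, while 19 passed after normexp background correction and 1 each after quantile normalization, among detected probes and with slide as a block in all 24 arrays. The fitted change was under 0.5 on the log2 scale for 84.5% of probes. Long noncoding RNA (lncRNA) probes were called in 620 of 16251 cases (3.82%), 461 higher and 159 lower, and coding probes in 1072 of 39430 (2.72%), 767 higher and 305 lower. With normexp background correction the order of the classes turned, at 70 lncRNA and 371 coding probes. Rises made up 72.6% of calls, but 52.8% after quantile normalization and 53.1% without array C of 4 weeks, the 1 sham array on slide 2, so that array and its slide cannot be told apart. With slide as a random block rises made up 72.0%. Of the 1692 called probes, 451 were measured on none of the 6 arrays, and 788 were both measured on all 3 arrays of the higher time and free of overlap between the times. Over all 55681 probes, called or not, 8.63% were free of overlap. Without both arrays with high muscle genes, 2810 probes were called and again none after adjustment. The genes below are therefore given as values with their spread, and none of them passed the adjustment over all probes in the main setting.

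**Figure D2:**
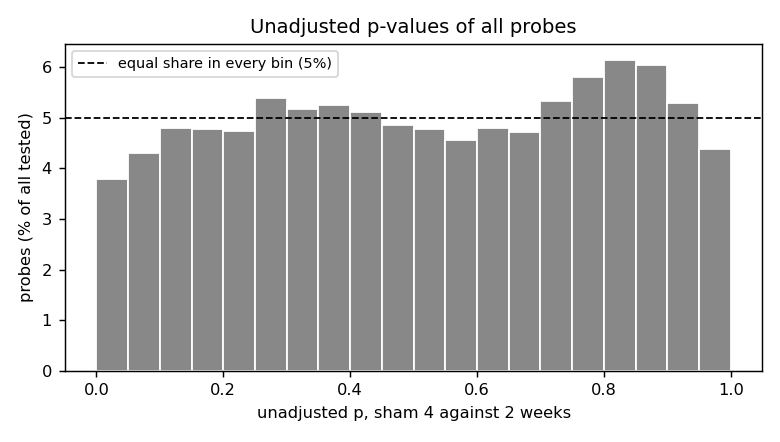
Share of the 55681 probes (y axis, percent) in each of 20 bins of unadjusted p (x axis) for sham 4 against 2 weeks, with a dashed line at an equal share of 5%. The lowest bin holds 3.8% of probes and lies under the line.

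Genes of red blood cells were lower at 4 weeks. Of the 8 genes of the erythrocyte list on the array, 5 were called lower and none higher, and the median change was -1.12, beside -0.01 for 1 probe of each of 24103 genes, of which 0.755% were called lower and 1.83% higher. In a bulk tissue, fewer cells of a type and less RNA per cell cannot be told apart. Hemoglobin is built from alpha and beta globin chains around heme, and Alas2 makes the erythroid form of the enzyme that starts heme synthesis. The 250 bases before the RefSeq start of an alpha globin gene, of 2 beta globin genes (the probe named Hbb-b1 targets the transcript RefSeq now lists as Hbb-bt, and Beta-s that of Hbb-bs) and of Alas2 are shown as the sequence nearest the starts of called genes. They are from build GRCm38.p6. Capitals mark GATAA, the core read by GATA factors of the erythroid lineage, and CACCC, the box read by Klf factors, on either strand.
Hba-a1, chr11:32283422-32283671, plus strand: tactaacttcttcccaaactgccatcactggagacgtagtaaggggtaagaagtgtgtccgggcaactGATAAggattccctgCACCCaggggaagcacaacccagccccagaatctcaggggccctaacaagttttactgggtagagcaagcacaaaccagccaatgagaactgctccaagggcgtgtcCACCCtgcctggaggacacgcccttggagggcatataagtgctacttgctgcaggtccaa
Hbb-bs, chr7:103827929-103828178, minus strand: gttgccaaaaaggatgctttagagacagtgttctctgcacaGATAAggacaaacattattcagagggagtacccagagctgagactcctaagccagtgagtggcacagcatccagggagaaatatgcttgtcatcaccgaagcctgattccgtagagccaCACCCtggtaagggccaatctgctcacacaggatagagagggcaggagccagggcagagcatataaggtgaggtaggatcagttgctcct
Hbb-bt, chr7:103813924-103814173, minus strand: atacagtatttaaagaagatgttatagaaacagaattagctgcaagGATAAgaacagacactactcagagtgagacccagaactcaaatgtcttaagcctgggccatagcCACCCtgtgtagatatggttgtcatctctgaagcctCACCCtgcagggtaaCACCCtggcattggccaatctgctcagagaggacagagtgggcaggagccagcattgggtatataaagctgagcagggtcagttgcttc
Alas2, chrX:150547167-150547416, plus strand: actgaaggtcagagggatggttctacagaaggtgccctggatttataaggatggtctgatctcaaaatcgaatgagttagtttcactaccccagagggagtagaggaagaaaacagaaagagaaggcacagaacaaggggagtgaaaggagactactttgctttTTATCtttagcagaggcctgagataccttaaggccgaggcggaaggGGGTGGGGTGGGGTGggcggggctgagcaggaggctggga
Each of the 4 windows held both motifs. Among 32851 RefSeq promoter windows of that length, 22.6% held GATAA and 52.0% held CACCC, so a match to either is common and describes the letters only.

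Hbb-b1 read 5.27, 7.09 and 6.36 on arrays A, B and C at 2 weeks and 5.0, 4.34 and 4.76 at 4 weeks. The change was -1.54 ± 0.47 (SE, 3 arrays against 3, limma adjusted p = 0.992), a 2.91-fold lower level. Array B was highest at 2 weeks and lowest at 4 weeks, and array A of 2 weeks lay just above the highest 4-week array, so the times did not overlap. Hbb-b2 read 4.72, 6.59 and 5.69 against 4.36, 3.71 and 4.41, a change of -1.50 ± 0.48. Beta-s, on its own probe, read 1.97, 3.99 and 2.96 against 1.76, -0.14 and 1.64. On all 3 beta globin probes array B was highest at 2 weeks and lowest at 4 weeks, and since the adult beta globin genes are near-identical, these probes may share RNA.

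The alpha globin probes followed them. Hba-a1 read 5.78, 7.75 and 6.75 at 2 weeks and 5.66, 5.51 and 5.62 at 4 weeks, a change of -1.17 ± 0.47. Hba-a2 read 7.97, 9.31 and 8.96 against 7.81, 7.39 and 7.83, a change of -1.07 ± 0.37. Both genes had a wide spread at 2 weeks and a narrow one at 4 weeks, and the lowest 2-week array lay just above the highest 4-week array. Alas2 read 0.07, 1.97 and 1.31 against 0.15, -0.79 and -0.17, a change of -1.39 ± 0.51, with array A of 2 weeks under array A of 4 weeks. Slc4a1, the anion exchanger of the red cell membrane, changed by -0.35 ± 0.27 and was not called.

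**Figure D3:**
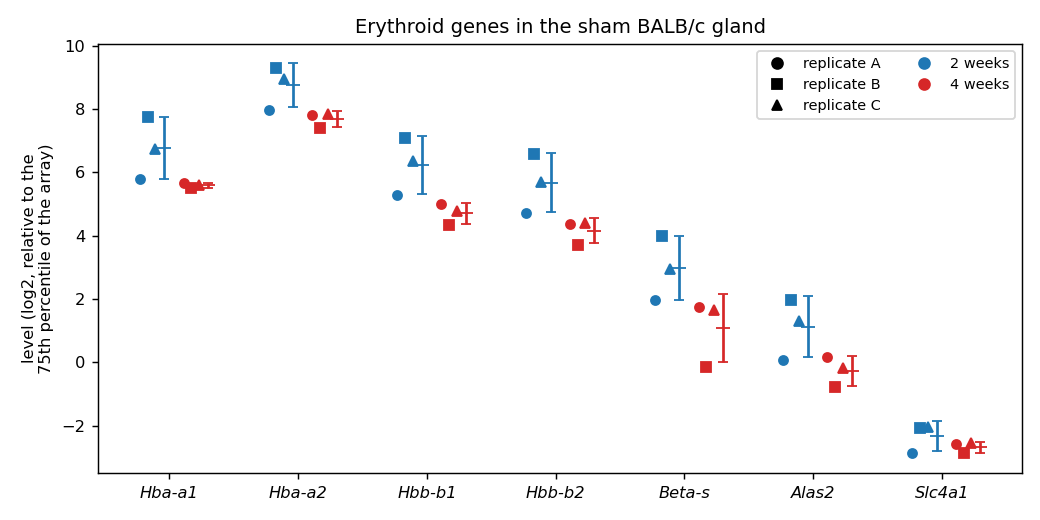
Levels (log2, relative to the 75th percentile of the array) of 7 erythroid probes on the 6 sham arrays, with symbols for replicates A, B and C and the mean with its SD (n = 3). Arrays B and C of 2 weeks lie above all 4-week arrays for each globin gene, and array A of 2 weeks lies close to them.

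The call rested on few arrays. Without array B of 4 weeks none of the 5 genes passed the thresholds, and without arrays B or C of 2 weeks 2 passed in each case, and 3 passed on slide 1 alone, without array C of 4 weeks. None passed with the methods' t-test or in the fits of all 24 arrays, while the list's median stayed negative under every alternative run. The summed linear level of the list was 372, 1084 and 742 on the 2-week arrays and 329, 247 and 326 on the 4-week arrays. In LDIR mice, whose 4-week arrays were all on another slide than their 2-week arrays, the summed level was 588, 1162 and 277 at 2 weeks and 169, 198 and 594 at 4 weeks, and the median change was -1.06. There 2-week array C and 4-week array C lay on the side of the other time, so the LDIR times overlapped.

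Immediate early genes, which many cell types switch on within minutes of a stimulus, were higher at 4 weeks in 3 of 18 cases and lower in none, with 15 of 18 changes above 0, beside 1.83% called higher and 47.6% of changes above 0 over all genes. Ier2, a nuclear protein of this class, read -2.44, -2.95 and -2.70 at 2 weeks and -1.61, -1.38 and -0.81 at 4 weeks, a rise of 1.43 ± 0.26 (limma adjusted p = 0.960). Junb, a subunit of the AP-1 transcription factor, read -4.05, -4.12 and -3.84 against -2.92, -3.31 and -2.36, a rise of 1.14 ± 0.27. Both genes separated the times on every array. Ier3 read -1.30, -1.94 and -1.15 against -1.11, 0.16 and 0.40, a rise of 1.28 ± 0.44, with array A of 4 weeks close to the 2-week arrays.

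The best-known members of the class did not pass. Egr1, a zinc finger factor, read 0.31, 0.29 and 1.98 at 2 weeks and 0.33, 3.92 and 4.37 at 4 weeks, a difference of 2.01 ± 1.11. Fos, the partner of Jun proteins in AP-1, read -0.50, -1.14 and 0.48 against -1.09, 1.49 and 2.36. Arrays B and C of 4 weeks were high for both genes and array A was not. The 4-week array A is also the one with the higher skeletal muscle genes, and without it 10 of the 18 genes passed, while 5 passed without array C of 2 weeks. When all 24 arrays were fitted with a term for slide, 1 passed. In LDIR mice the same interval gave changes of 0.34 for Ier2, 0.56 for Junb and 0.08 for Ier3, and none of the 3 passed the thresholds for a difference between sham and LDIR.

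The hormone response genes were called in 0 of 13 cases, and the stage of the estrous cycle is not given. Pgr, the progesterone receptor, read 1.68, 0.31 and 0.84 at 2 weeks and -0.10, 1.43 and 1.05 at 4 weeks. Areg, the estrogen-induced growth factor amphiregulin, read 4.44, 3.55 and 3.48 against 3.91, 4.29 and 5.13, a difference of 0.62 ± 0.40. Wnt4, which acts downstream of progesterone, read 2.58, 1.05 and 1.73 against 1.96, 1.76 and 2.19. In all 3 genes the times overlapped, and the spread among arrays of one time was as large as the difference. Tnfsf11, which encodes RANKL, the paracrine signal of progesterone, read -0.55, -7.76 and -6.91 at 2 weeks and -0.60, -4.07 and -2.93 at 4 weeks. Its probe was above background on array A alone at 2 weeks and on all 3 arrays at 4 weeks.

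Epithelium and proliferation gave 1 call. None of 17 luminal genes and none of 12 basal genes was called, with 16 of the 17 luminal changes above 0 and a median of 0.18. Krt8, the partner of Krt18, changed by 0.08 ± 0.38, Acta2, the actin of myoepithelial cells, by -0.19 ± 0.21 and Trp63, a factor of basal cells, by -0.10 ± 0.17. Mki67, a marker of dividing cells, read 1.06, 0.21 and 0.53 at 2 weeks and -0.08, -0.46 and 0.82 at 4 weeks. The 21 cell cycle genes had 18 changes below 0 and a median of -0.39, and none was called. Of 13 milk protein genes, Xdh, an oxidoreductase that coats the milk fat globule, was called: it read 2.04, 2.38 and 2.11 at 2 weeks and 1.16, 2.06 and 1.05 at 4 weeks, a change of -0.76 ± 0.30. Btn1a1 and Mfge8, also of the milk fat globule membrane, changed by 0.39 ± 0.21 and 0.04 ± 0.26.

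The fat of the gland also gave 1 call. Of 13 white adipocyte genes, Lep, the satiety hormone leptin, was called: it read 2.20, 2.72 and 1.85 at 2 weeks and 1.92, 0.81 and 1.36 at 4 weeks, a change of -0.89 ± 0.35 with array A of 4 weeks above array C of 2 weeks. Fabp4, the fatty acid carrier of adipocytes, changed by -0.02 ± 0.19 and Cfd, the adipocyte protease adipsin, by 0.06 ± 0.18. None of 15 genes of fatty acid synthesis was called, and Thrsp and Dgat2, the brightest of them, changed by 0.07 ± 0.32 and -0.21 ± 0.30. None of 8 brown adipocyte genes was called. Ucp1, the uncoupling protein of brown fat, read -1.13, -0.81 and 0.37 at 2 weeks and 1.63, 0.08 and -0.36 at 4 weeks, while Cidea changed by 0.71 ± 0.40 and Cox8b by 0.14 ± 0.22.

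Vessels and stroma gave a single call. Cldn5, a tight junction protein of endothelium, was the 1 gene called of 10: it read 2.53, 2.68 and 2.26 at 2 weeks and 3.03, 3.47 and 3.00 at 4 weeks, a rise of 0.68 ± 0.21 with no overlap. In LDIR mice it read 2.64, 2.66 and 2.61 at 2 weeks and 1.79, 2.42 and 2.31 at 4 weeks, a change of -0.46. The difference between the sham and LDIR changes was 1.14 (limma interaction, adjusted p = 1.00). Kdr, the main receptor for VEGF on endothelium, changed by 0.35 ± 0.24. None of 17 extracellular matrix genes was called, 14 of 17 changes were below 0 and the median was -0.41, with Sparc, a collagen-binding protein, at -0.42 ± 0.24 and Dcn, the proteoglycan decorin, at 0.06 ± 0.29.

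Immune cell genes were called in none of 12 T lymphocyte, 11 B lymphocyte, 11 macrophage, 10 MHC class II, 8 mast cell and 13 granulocyte cases. All 12 T lymphocyte genes and all 10 MHC class II genes had a change above 0, with medians of 0.50 and 0.32, beside 47.6% of all genes above 0. Cd3e, part of the T cell receptor complex, changed by 0.28 ± 0.26 and Cd4, the coreceptor of helper T cells, by 0.22 ± 0.28. H2-Ab1 and H2-Eb1, chains of the class II molecules that present antigen, changed by 0.23 ± 0.22 and 0.19 ± 0.24. Cd79a and Cd22 of B cells changed by 0.08 ± 0.24 and -0.17 ± 0.16. Csf1r and Lyz1 of macrophages changed by 0.04 ± 0.37 and 0.09 ± 0.26, Mcpt4 and Tpsb2, proteases of mast cells, by 0.10 ± 0.56 and 0.33 ± 0.41, and Csf3r and Elane of granulocytes by 0.26 ± 0.17 and 0.18 ± 0.25. Each of these differences, for the 2 brightest genes of a list, was smaller than 2 standard errors. Some dimmer genes, such as Cd3g and H2-Aa, exceeded 2 standard errors without being called.

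Genes of other tissues and of cell states gave 1 call. Of 10 salivary gland genes, Klk1, a tissue kallikrein, was called: it read -5.0, -5.0 and -5.38 at 2 weeks and -3.61, -3.10 and -4.49 at 4 weeks, a rise of 1.39 ± 0.37 near the lower end of the scale, while Amy1 and Prb1 changed by -0.08 ± 0.19 and -0.02 ± 0.21. None of 12 epidermis, 8 peripheral nerve, 16 circadian clock, 15 interferon-stimulated, 11 glucocorticoid response and 9 heat shock genes and none of 12 known lncRNAs was called. Dbp and Tef, clock-driven factors with large daily swings, changed by 0.03 ± 0.18 and -0.23 ± 0.16. Isg15, an interferon-induced modifier, changed by 0.50 ± 0.38 and Oas1a by 0.05 ± 0.36. Mt1 and Angptl4, which glucocorticoids induce, changed by -0.34 ± 0.18 and 0.03 ± 0.42, and the chaperones Hspa8 and Hspd1 by -0.04 ± 0.17 and -0.07 ± 0.20. The lncRNAs Neat1, the scaffold of paraspeckles, and Gas5 changed by -0.19 ± 0.19 and -0.02 ± 0.22. Krt10 and Calml3 of epidermis changed by -0.02 ± 0.39 and 0.26 ± 0.26, and Mbp and Pmp22 of myelin by -0.08 ± 0.18 and -0.18 ± 0.23. Of 27 lists with 337 genes on the array, 21 had no called gene, and the 12 called genes were 5 higher and 7 lower. Over all 24103 genes, at 1 probe each, 1.83% were called higher and 0.755% lower. Xdh, Lep, Cldn5 and Klk1, each the only call of its list, stand beside these shares.

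**Figure D4:**
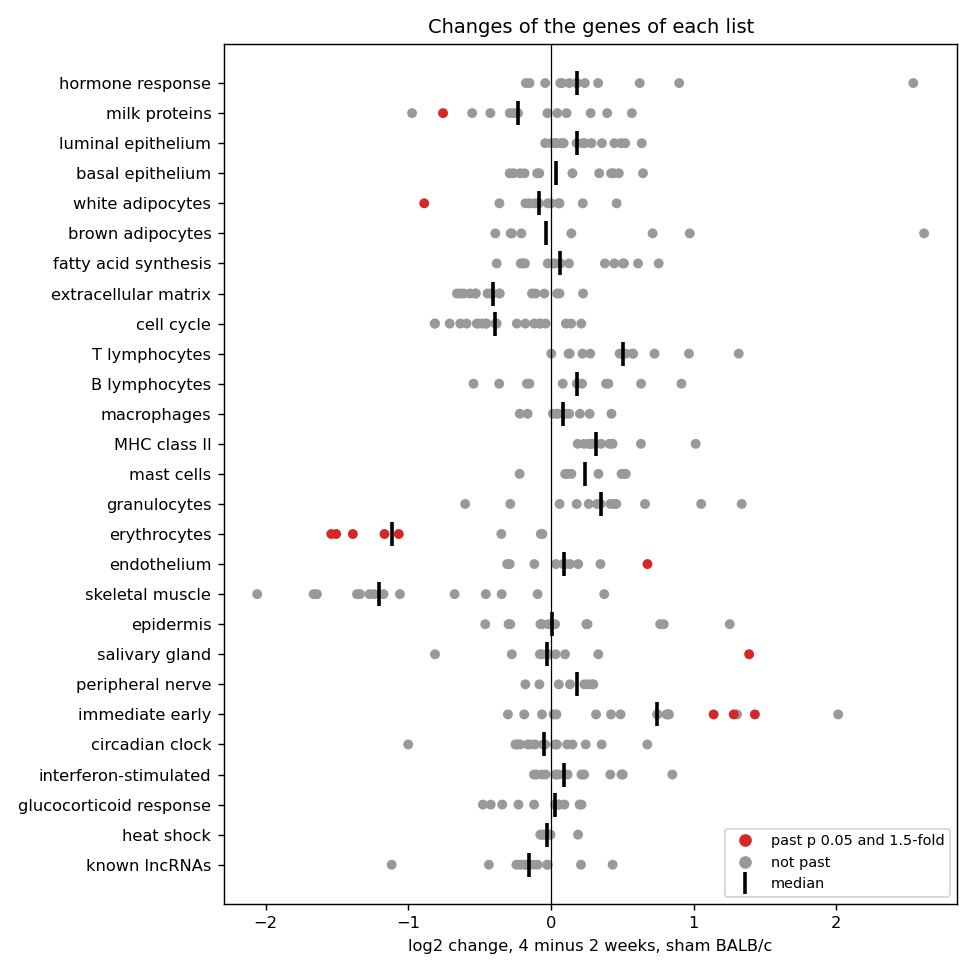
Log2 change, 4 minus 2 weeks (x axis), of every gene of the 27 lists (rows), with called genes in red, others in grey and a black bar at the list's median. The erythrocyte row has 5 red points, all below 0, and the immediate early row 3, all above 0.

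The largest rises lay among dim probes. The 10 largest among coding genes by the rule for naming (called, measured on all 3 arrays of the higher time, no overlap) were ranked by fitted change, which has no exact meaning for a probe near background at 2 weeks, and of these only Cyp2w1, a cytochrome P450, was measured on all 6 arrays. It read -4.32, -4.34 and -4.53 at 2 weeks and -2.47, -1.75 and -3.51 at 4 weeks, a rise of 1.82 ± 0.43. Smcp, a protein of the sperm mitochondrial capsule, was below background on all 3 arrays of 2 weeks and read -2.95, -5.11 and -4.83 at 4 weeks. Where a time had no measured array, the lowest measured signal of each array served as the bound, and Smcp was at least 2.58-fold higher at 4 weeks. By the same bound F830005K03Rik was at least 2.66-fold higher, B4galnt4, a glycosyltransferase, at least 1.78-fold, 4930534B04Rik at least 1.46-fold and Gm5494 at least 1.33-fold. Another 4930534B04Rik probe, annotated to a different transcript and measured on all 6 arrays, changed by -0.16 ± 0.18 and was not called. Matn4, a matrix protein of the matrilin family, read -5.51, -6.89 and -6.90 against -5.04, -3.23 and -3.62, and a second probe of it was also called, at 1.36 ± 0.50. Gpr17, a receptor of oligodendrocyte precursors, Foxj1, the master factor of motile cilia, and Gm8075 had changes of 2.00 ± 0.70, 1.90 ± 0.78 and 1.84 ± 0.69 and were each measured on 1 or 2 arrays at 2 weeks.

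Among probes measured on all 6 arrays, a ranking added after the values were seen gave brighter genes. Epha1, an ephrin receptor, read -2.58, -3.27 and -1.37 at 2 weeks and -1.10, -0.18 and -0.64 at 4 weeks, a rise of 1.77 ± 0.51. Zbp1, a sensor of Z-form nucleic acids, rose by 1.53 ± 0.37 on that probe and changed by 0.02 ± 0.26 on its other probe. Cxcl10, an interferon-induced chemokine, read -2.43, -2.81 and -3.12 against -2.11, -0.86 and -0.87, a rise of 1.51 ± 0.39, and its second probe, below background on all 2-week arrays, was called as well. In LDIR mice the first Cxcl10 probe changed by 0.29, and the difference between sham and LDIR was 1.22 (limma interaction, adjusted p = 1.00). Chat, the enzyme that makes acetylcholine, rose by 1.53 ± 0.52 and Btbd9 by 1.61 ± 0.51, and a second Btbd9 probe was called at 0.74 and the other 2 changed by 0.09 and -0.15.

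The 10 largest falls among coding genes ranged from -2.04 to -1.40. Besides the 3 beta globin probes they held Tsc22d1, Gprc5b, Pigt, Foxo4, Rab5c, 4933408B17Rik (Brd8dc in RefSeq) and BC051226. Foxo4, a forkhead factor of the insulin pathway, was dim, at -4.89, -4.04 and -3.78 against -4.89, -6.55 and -6.28 on the probe at chrX:98454966-98455025. The Foxo4 probe at chrX:98454974-98455033, annotated to the same transcript, changed by -0.93 ± 0.51. It was not called, and its times overlapped. The remaining Foxo4 probe was below background on every sham array of these times and changed by -0.35 ± 0.60, also not called. 4933408B17Rik read -2.41, -2.58 and -2.93 against -4.53, -4.11 and -3.74. BC051226, a noncoding transcript, read 0.26, 0.48 and 0.02 against -1.10, -0.94 and -1.41, a change of -1.40 ± 0.21 (limma adjusted p = 0.842).

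Several of these falls were seen on 1 probe of a gene whose other probe was not called. Tsc22d1, a leucine zipper factor induced by TGF-beta, has a probe for transcript variant 1 (mm9, chr14:76906896-76906955) that read 3.01, 3.31 and 2.56 at 2 weeks and 0.61, 0.47 and 1.69 at 4 weeks, a change of -2.04 ± 0.38. The probe for variant 2, at chr14:76907276-76907335, changed by -0.35 ± 0.19. Gprc5b, an orphan receptor, read 2.66, 2.82 and 2.00 against 0.56, 0.87 and 0.80 on the probe at chr7:126117168-126117227 and changed by 0.23 ± 0.21 on the probe at chr7:126115825-126115884, although both are annotated to the same transcript. Pigt, a subunit of the enzyme that attaches GPI anchors, read 2.72, 2.71 and 2.77 against 0.47, 0.84 and 1.77 on 1 probe and changed by -0.01 ± 0.20 on the other. Rab5c, a GTPase of early endosomes with 1 probe, read 4.03, 4.29 and 3.89 against 2.51, 2.72 and 1.99, a change of -1.67 ± 0.24. In each of these 4 genes the 2-week arrays lay clear of all 4-week arrays on the called probe, as the rule for naming required.

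The opposite change was seen in Prmt1 and Eml2. Prmt1, the main protein arginine methyltransferase of the cell, has 2 measured probes, and both rose: the first read 2.32, 2.13 and 1.97 at 2 weeks and 3.94, 4.06 and 3.08 at 4 weeks, a rise of 1.55 ± 0.29, and the second rose by 1.60 ± 0.32. Eml2, a microtubule-binding protein, rose by 1.72 ± 0.26 on 1 probe and by 0.94 ± 0.18 on the other. Among 4831 coding genes with 2 or more probes measured on all 6 arrays, 128 had a called probe and 8 had all their measured probes called. The 3 that rose were Prmt1, Eml2 and Ppm1l, a protein phosphatase, at 1.14 and 1.23. The 5 that fell were Trim67 at -1.17 and -0.69, Mutyh, a DNA glycosylase, at -0.90 and -0.83, Trim16 at -0.74 and -0.60, Copg2, of the COPI coat, at -0.71 and -0.66, and Stard6 at -0.69 and -0.69. These 8 were named after their values were seen.

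In the LDIR mice these levels did not follow time between 2 and 4 weeks. Rab5c read 2.27, 4.18 and 3.99 on LDIR arrays A, B and C at 2 weeks and 2.34, 4.13 and 4.02 at 4 weeks. Tsc22d1 variant 1 read 1.17, 3.48 and 2.57 and then 0.67, 3.18 and 2.93. Gprc5b read 0.54, 2.67 and 2.66 and then 0.16, 2.68 and 2.07. At both LDIR times, array A was therefore near the level of the 4-week sham arrays, and arrays B and C were near that of the 2-week sham arrays. Prmt1 showed it in the other direction, with 3.64, 1.65 and 1.57 at 2 weeks and 3.87, 1.86 and 1.75 at 4 weeks on the probe given above. Pigt read 1.34, 2.73 and 2.83 and then 0.78, 2.77 and 2.79, and BC051226 -1.04, 0.28 and -0.12 and then -1.59, 0.61 and 0.02. The sham 2-week A array did not share the level of the LDIR A arrays. LDIR array A of 2 weeks and 5 of the 6 sham arrays were on slide 1, and LDIR array A of 4 weeks was on slide 2. LDIR array A of 4 weeks also had a mean negative control intensity of 302, against 1.68 to 2.71 on the other 11 arrays, and without it 2157 probes were past the unadjusted thresholds for a difference between the sham and LDIR changes, against 2004 with it. On the 3 sham arrays at 8 weeks, Prmt1 read 4.02, 4.37 and 4.43 on the probe given above. Gprc5b read -1.34, -0.16 and -1.39 there, so both genes lay at or past the 4-week sham level. Tsc22d1 variant 1 read 0.67, 1.86 and 1.08, nearer the 4-week than the 2-week sham arrays. Rab5c at 3.00, 3.42 and 2.94 and BC051226 at -0.58, -0.16 and -0.90 lay between the 2 sham times. What the arrays at each level have in common was not tested.

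**Figure D5:**
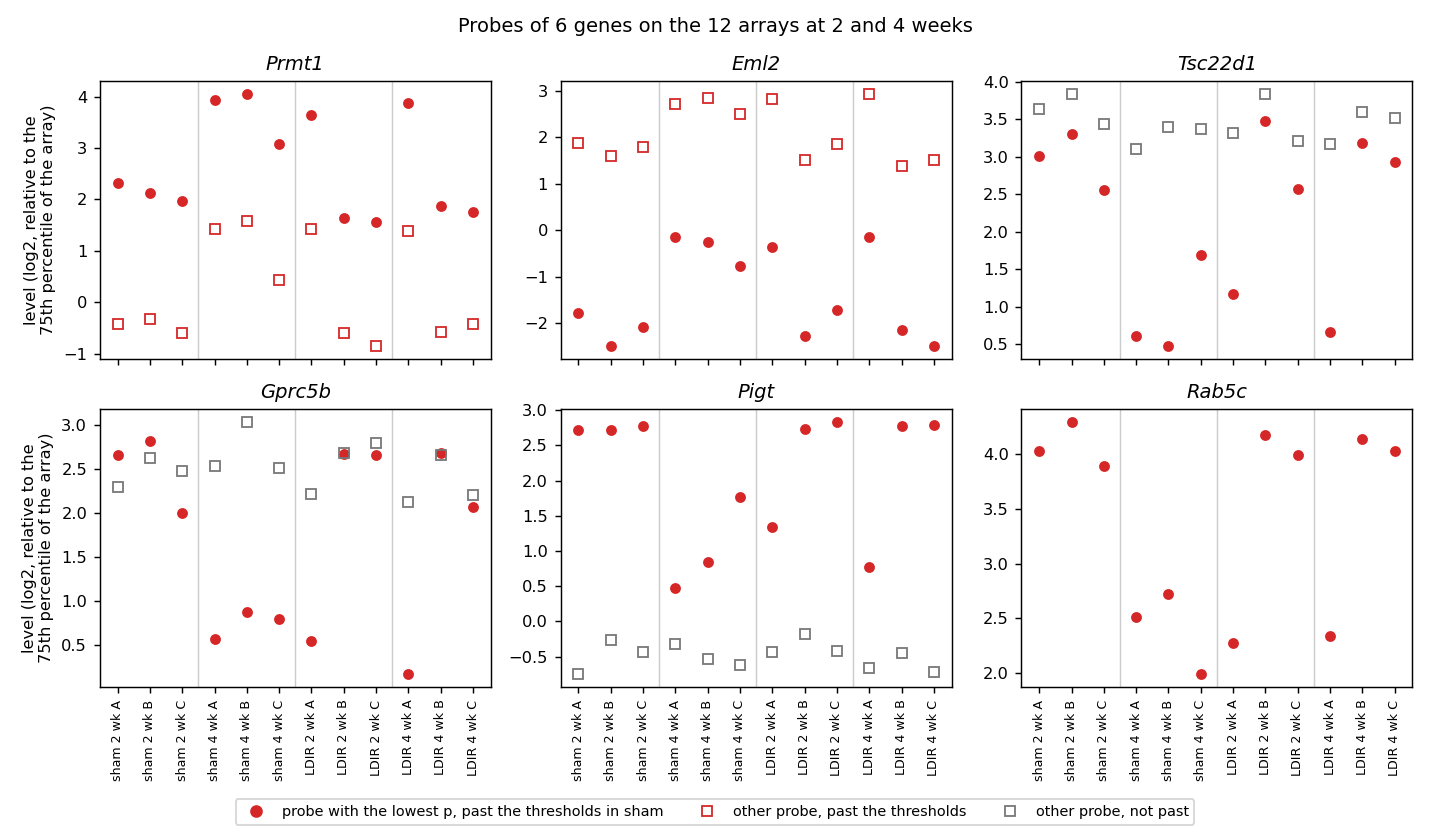
Levels (log2, relative to the 75th percentile of the array) of the probes of 6 genes on the sham and LDIR arrays at 2 and 4 weeks, 1 point per array. On the called probes (red), LDIR array A at both times lies with the 4-week sham arrays, for example Rab5c at 2.27 and 2.34. LDIR arrays B and C lie with the 2-week sham arrays on these probes.

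To place the LDIR arrays for all called probes measured on all 6 sham arrays, the level of each probe was expressed as a position between the sham means, 0 at the 2-week mean and 1 at the 4-week mean. Over the 591 probes the median position was 0.42, 0.06 and 0.35 on the LDIR 2-week arrays A, B and C and 0.85, 0.39 and 0.54 on the LDIR 4-week arrays. The 415 rises gave 0.37, 0.14 and 0.42 at 2 weeks and 0.85, 0.53 and 0.59 at 4 weeks, and the 176 falls gave 0.49, -0.16 and 0.25 and then 0.83, 0.12 and 0.41. Array A was the highest of its time except for the rises at 2 weeks. The middle range was wide, from 0.06 to 0.85 of the lower and upper quartile on LDIR array A of 2 weeks. On the 3 sham arrays at 8 weeks the median position was 1.01, 0.42 and 0.52. The position is a description, and the sham arrays that define it are not placed by it.

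A test of the difference between intervals used all 12 arrays. The change between 4 and 2 weeks differed between sham and LDIR for 2004 of 55680 probes (3.6%), 985 with the greater value in sham and 1019 with the greater value in LDIR, and none after adjustment over all probes in limma, at a lowest adjusted p of 0.184. In LDIR the time coincided with the slide, and leaving out sham array C of 4 weeks, the 1 sham array on slide 2, raised the count to 4077. Time and slide cannot be told apart within the LDIR arrays.

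The lncRNA probes with the largest changes were also dim. Each lncRNA probe of the array is named by a genomic interval in build mm9 and a strand, without a gene name. The 60-base probes of the largest rise and of the one fall measured on all 6 arrays are shown, because the letters of the probe are the identity of the transcript measured.
chr16:3111550-3130500, reverse strand: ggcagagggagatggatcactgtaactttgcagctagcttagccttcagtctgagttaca
chr9:82991830-82999937, forward strand: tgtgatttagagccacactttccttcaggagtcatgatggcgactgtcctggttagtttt
The first was below background at 2 weeks and read -4.15, -4.39 and -4.71 at 4 weeks, at least 2.38-fold higher. The second read -4.00, -3.00 and -3.64 at 2 weeks and -4.72, -5.25 and -4.35 at 4 weeks. Its change was -1.22 ± 0.34 with no overlap, as the rule for naming required.

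The other named lncRNAs were measured in part. Those that rose were the intervals chr14:21462770-21463270 on the forward strand (2.19 ± 0.78, measured on 1 array at 2 weeks), chr13:94186098-94186634 on the forward strand (below background at 2 weeks, at least 1.83-fold higher) and chr6:126766225-126771309 on the reverse strand. The last read -5.54, -5.45 and -3.50 at 2 weeks and -2.94, -3.02 and -2.79 at 4 weeks, so its 4-week arrays were closer together than its 2-week arrays. Those that fell were chr8:74473445-74496948 on the reverse strand, at least 1.52-fold, chr2:94008913-94019798 on the reverse strand (-1.49 ± 0.58) and chr10:8606683-8665783 on the forward strand (-1.40 ± 0.51). None of the 8 passed the adjustment over all probes, as for all coding genes above.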

How the data were processed

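Total RNA of whole mammary glands was labelled with 1 colour and hybridised to Agilent 60K mouse arrays. Per the file headers, the deposited intensity values came from Feature Extraction 10.10.1.1, which subtracted background, and probe positions are in mm9. The authors normalised to the 75th percentile in GeneSpring, and their deposited log2 values are centred on the median of each probe across the series, which was used as an alternative only. Here log2(processed signal) minus the 75th percentile over 59305 non-control spots was taken on each array, outlier spots were left out and spots of a probe were averaged, giving 55681 probes. Values were tested with limma 3.58.1 in R 4.3.3, with 3 arrays a group and no covariate, and p-values were adjusted by Benjamini-Hochberg over all probes. The number of arrays limits the precision. With 3 against 3 arrays an exact permutation test cannot go below 0.1, so none was used. A difference between the sham and LDIR intervals was an interaction term over 12 arrays.

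Coding genes named were the 10 largest rises and 10 largest falls, and lncRNAs the 4 largest of each, among called probes whose times did not overlap and whose higher time had a clear signal on each array. Per list (1 probe a gene, the brightest), called members were named, up to 4, or the 2 brightest where none was called, plus a fixed set of mammary genes. The members and lists were chosen with earlier results of these data known. Symbols are those of the array, and 93 of 101 coding probes named or tested as named matched a RefSeq transcript. The fit was tested on simulated data. Replicate letters did not pair the arrays: the correlation of deviations from the group means was -0.35 for A, -0.01 for B and 0.06 for C. Alternatives were other background corrections, scalings and filters, the methods' t-test, blocks for replicate and slide, all 24 arrays, and each array left out.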

Additional observations from a re-analysis of the deposited data

Results flagged for a closer look

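For 7 of the probes named for a change in sham, the change between 4 and 2 weeks differed between sham and LDIR mice. The thresholds were an unadjusted interaction p under 0.05 and a difference over 1.5-fold. None of the 7 passed after adjustment over all probes in limma (adjusted p = 1.00 in each). Over all 55680 probes, 2004 (3.6%) were past the same thresholds. Probes outside these 7 were also past them, among them Cidea at 2.05 and the second Cxcl10 probe at 2.03, both greater in sham. Lyz1 at -1.16 and the other Zbp1 probe at -1.09 were past them with the greater value in LDIR. These 7 were named for their change in sham, which is also part of the difference, so the naming favoured their passing. Cldn5 rose by 0.68 in sham and changed by -0.46 in LDIR, a difference of 1.14. Cxcl10 rose by 1.51 in sham and changed by 0.29 in LDIR, a difference of 1.22. The other 5 were dim probes, above background on 0 to 2 of the 3 sham arrays at 2 weeks, so their fitted differences are not exact sizes. The fitted value of Smcp differed by 2.20, Gpr17 by 2.20, and the lncRNAs at chr14:21462770-21463270, chr13:94186098-94186634 and chr6:126766225-126771309 by 2.76, 1.52 and 2.31. In LDIR the 2 times were on different slides, which cannot be told apart from time there.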

How the results depend on the processing

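The 1692 probes called in sham became 441 with normexp background correction, 1086 among detected probes and 855 with the methods' t-test, and 1513 to 2495 when 1 array was left out. Leaving out arrays C of 2 weeks and A of 4 weeks together, chosen after seeing the data, gave 2810. Quantile normalization gave 761 higher and 681 lower, slide as a block in all 24 arrays 546 and 589, and slide 1 alone 1008 and 890. Normexp passed 19 probes after adjustment in limma, and quantile normalization, detected probes and the slide block 1 each. With the replicate block, which has no pairing behind it, 1975 probes were called in sham and 2397 for the difference between sham and LDIR. That difference gave 724 probes with normexp, 974 with all 24 arrays and 613 with slide as a block, and 1727 to 4077 with 1 array left out, the highest without sham array C of 4 weeks. The 5 erythrocyte genes became 0 with the methods' t-test, with all 24 arrays and with slide as a block, 3 with the replicate block, 1 without the pair of arrays above, and 0 to 6 with 1 array left out (0 without B of 4 weeks, 2 without B or C of 2 weeks, 3 without C of 4 weeks). The 3 immediate early genes became 8 with normexp, 1 with slide as a block, 10 without the pair, and 2 to 10 with 1 array left out (10 without A of 4 weeks, 5 without C of 2 weeks). Of 58 named probes past the thresholds, 31 to 58 stayed past under each alternative and none turned its direction. Leaving out arrays cannot turn the direction of a probe whose times did not overlap, which the rule for the largest changes required. The cause of these shifts was not tested.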
